A study of Homo sapiens with 18 samples.

Results

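The genes described here are the human transcription regulators whose symbols begin with ZBTB, ZSCAN, ZKSCAN or ZFHX. A transcript cluster, the unit that the exon array reports for a gene, was taken when the platform table gives it a single symbol of that form, and the cluster brightest over all arrays would have stood for a gene with several. Each gene had 1 cluster, so no choice was needed. The rule gave 52 of the 14232 genes with a single symbol, among 22011 transcript clusters in all. They comprise 32 ZBTB, 13 ZSCAN, 4 ZKSCAN and 3 ZFHX genes.

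All of these genes encode zinc finger proteins that read DNA, and the families differ in the domain attached to the fingers. A BTB domain lets ZBTB proteins pair and recruit corepressors such as NCOR1, SIN3A and BCOR, a SCAN domain lets ZSCAN and ZKSCAN proteins pair with one another, and the KRAB box of many ZKSCAN proteins recruits the corepressor TRIM28. ZFHX proteins are very large factors that join zinc fingers to homeodomains, and ZFHX3 and ZFHX4 are known from neural development.

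The RNA came from U251-MG, an established human astrocytoma line, in 6 groups of 3 biological replicates each. They were the TIAR RNA immunoprecipitate (RIP) of stressed and of unstressed cells, the G3BP1 RIP of stressed and of unstressed cells, and the input of stressed and of unstressed cells. Stressed cells had been given 500 µM arsenite and unstressed cells DMSO, each for 30 min, and the labels describe no other difference and no genetic change. TIAR and G3BP1 are RNA-binding proteins that collect with stalled mRNAs in stress granules, which arsenite induces, and the labels call the TIAR antibody Tial or TIAL. A single cell line in culture was used, and no immunoprecipitate with a control antibody is among the groups, so a RIP was set against input only.

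Values are log2 signals, on which a difference of 1 is a doubling, and they give a gene's level relative to the other RNA of a sample, not the amount of RNA recovered. In lysate and RIP alike, fewer cells holding a transcript and less of it per cell cannot be told apart. Array medians ran from 7.73 to 8.07. In stressed input replicate 1, and in the unstressed G3BP1 RIP replicate 3, the mean correlation with the rest of the group was 0.980, the lowest values of the series, and their upper quartiles were 9.17 and 9.45. Replicate 1 was the lowest of the 3 stressed input arrays for 38 of the 52 genes, and replicate 3 was the lowest of the 3 unstressed G3BP1 arrays for 42, so counts are given with and without both arrays. Of the markers that define the labelled astrocytoma cells, VIM averaged 12.97, CD44 12.13 and SOX9 10.71, while GFAP averaged 8.63 and S100B and AQP4 were dim, at 4.92 and 4.78. Of markers of other cells, the neuronal genes NEFL and SYT1 averaged 13.32 and 9.71 and SNAP25 and STMN2 6.79 and 6.86. The myeloid genes ran from PTPRC at 3.65 over AIF1 at 6.04, CSF1R at 7.30 and CD14 at 7.76 to CD68 at 9.56. The epithelial genes EPCAM and CDH1 stood at 3.41 and 5.91, and the blood genes HBB and ALAS2 at 6.52 and 6.89. The median over all clusters was 7.94.

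The 52 genes spread over most of the array's range, with means over 18 arrays between 4.41 and 10.71, around the median of 7.94 for all clusters. The 5 brightest were ZBTB33 at 10.71, ZBTB2 at 10.44, ZFHX4 at 10.42, ZBTB21 at 9.99 and ZBTB7A at 9.92. ZBTB33, also called Kaiso, binds methylated CpG sites, and ZBTB7A, also called LRF, represses fetal globin genes in red cells. The 5 dimmest were ZSCAN4 at 4.41, ZSCAN12 at 5.82, ZBTB34 at 6.73, ZSCAN2 at 6.96 and ZBTB16 at 7.14. ZSCAN4 is known, chiefly from the mouse, for telomere lengthening in cleavage-stage embryos, and ZBTB16, or PLZF, is a factor of innate-like T cells and spermatogonia. Signals of different probes are not comparable as amounts, so this order describes the array and not the number of transcripts.

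The genes also differed in how far their group means ranged. ZBTB20, a transcriptional repressor that acts in the developing hippocampus, had the widest range of group means, 2.72 on the log2 scale. ZFHX4 followed with 2.69 and ZBTB41 with 2.67. ZBTB16 had the narrowest, 0.10, with group means between 7.09 and 7.19. It was 1 of 7 genes that met the threshold in none of the 9 comparisons between 2 groups, an adjusted p under 0.05 in limma, the others being ZBTB1, ZBTB32, ZBTB47, ZSCAN4, ZSCAN10 and ZSCAN18. They include 3 of the 8 genes listed for lymphocytes and blood, ZBTB1, ZBTB16 and ZBTB32, the other 5 being called at least once. The share of all clusters that met the threshold in none of the 9 comparisons was not computed, so these counts are descriptive only.

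**Figure D1:**
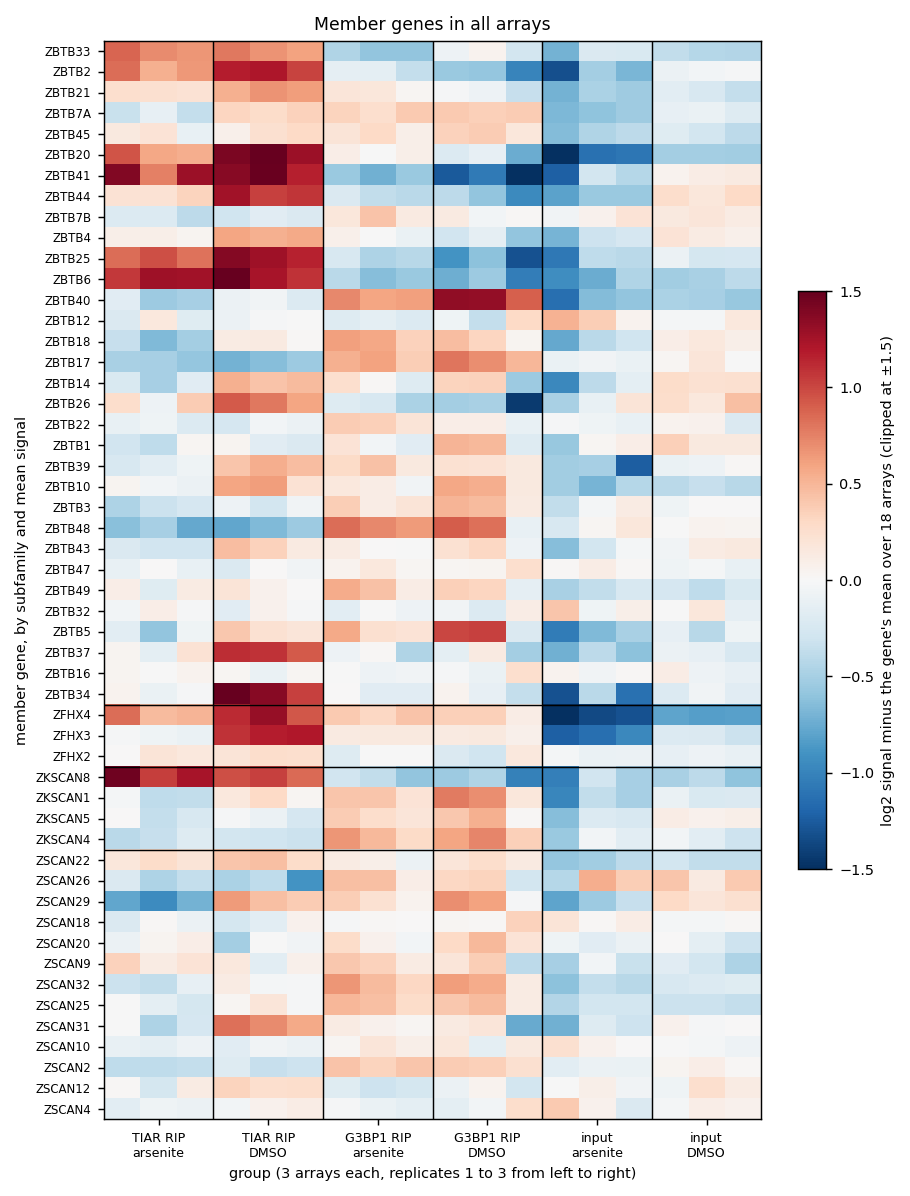
Heat map of the 52 genes (rows) on 18 arrays (columns, by group), each value being the log2 signal minus the gene's mean over the 18 arrays. Genes such as ZBTB41, ZBTB6, ZKSCAN8 and ZBTB25 are highest on the 6 TIAR RIP arrays, ZBTB40 and ZBTB17 on the 6 G3BP1 RIP arrays, and ZBTB16 hardly varies.

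With arsenite, a set of these genes was lower in the TIAR RIP and none passed the threshold upwards. Of the 52 genes, 15 were lower and 0 higher in the stressed TIAR RIP, where 5.71% of all clusters were lower and 6.15% higher. At an unadjusted p under 0.05 limma gave 22 lower and 0 higher. The median change of the 52 genes was -0.20, beside -0.00352 for all clusters, and 40 of the 52 changes were negative. The 15 were 12 ZBTB genes, ZSCAN29, ZSCAN31 and ZFHX3. For all 15 the stressed and unstressed arrays did not overlap. The share of all called clusters without overlap was not computed, so this is descriptive only.

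ZBTB34, a BTB zinc finger gene of little known function, fell most. Its log2 signal was 6.79, 6.64 and 6.72 in the stressed TIAR RIP, against 8.43, 8.10 and 7.76 in the unstressed TIAR RIP, a change of -1.38 ± 0.20 (SE of the fit, n = 3 per group; adjusted p = 0.000328) and 2.61-fold lower. All 3 stressed arrays lay below all 3 unstressed ones, as the choice of named genes required. The unstressed arrays were spread over more than the stressed. ZSCAN29, a SCAN zinc finger gene, read 7.75, 7.59 and 7.82 in the stressed TIAR RIP and 9.17, 8.98 and 8.91 in the unstressed one, a change of -1.30 ± 0.16 (adjusted p = 0.00011). Here the groups stood more than 1 log2 unit apart.

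The promoters of these 2 genes are shown with that of ZBTB33, the brightest gene of the rule, which did not pass the threshold with arsenite in the TIAR RIP or input, because all of them hold the letters CCGGAAG, the core that ETS factors recognise. The sequences run 5′ to 3′ from 250 bases before to 50 after the first RefSeq start of each gene, in lower case with CCGGAAG or its reverse complement in capitals. They lie at chr9:126860389-126860688 on the plus strand, chr15:43370994-43371293 on the minus strand and chrX:120250562-120250861 on the plus strand of GRCh38.p14, and ZBTB34 and ZSCAN29 hold 2 matches each and ZBTB33 holds 1.
ZBTB34: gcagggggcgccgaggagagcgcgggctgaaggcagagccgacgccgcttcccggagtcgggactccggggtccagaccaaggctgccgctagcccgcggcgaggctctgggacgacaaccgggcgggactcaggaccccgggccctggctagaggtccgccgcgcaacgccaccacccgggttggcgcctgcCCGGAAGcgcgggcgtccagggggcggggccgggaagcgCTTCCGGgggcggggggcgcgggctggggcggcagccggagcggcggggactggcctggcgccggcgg
ZSCAN29: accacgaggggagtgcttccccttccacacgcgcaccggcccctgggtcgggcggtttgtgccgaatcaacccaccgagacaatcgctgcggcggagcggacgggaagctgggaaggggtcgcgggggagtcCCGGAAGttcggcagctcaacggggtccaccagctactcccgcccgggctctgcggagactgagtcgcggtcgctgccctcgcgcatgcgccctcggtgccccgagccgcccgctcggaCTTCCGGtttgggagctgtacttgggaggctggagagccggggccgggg
ZBTB33: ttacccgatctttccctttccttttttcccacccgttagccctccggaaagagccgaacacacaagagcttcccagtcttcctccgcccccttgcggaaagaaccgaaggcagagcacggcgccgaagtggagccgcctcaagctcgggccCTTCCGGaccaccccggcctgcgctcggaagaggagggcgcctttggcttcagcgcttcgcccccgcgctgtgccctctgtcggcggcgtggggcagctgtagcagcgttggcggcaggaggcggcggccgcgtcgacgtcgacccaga
Of the 52 genes, 44 had a promoter in the RefSeq table. Read on both strands, CCGGAAG was found in 15 of the 44 (34.1%) and in 10.7% of all 27305 promoters of the table. GGGCGG, the letters bound by SP factors, stood in 65.9% against 44.6%, CCAAT in 36.4% against 35.7%, and TATAAA in 1 of the 44, that of ZSCAN4 (2.27%), against 12%. The motifs were chosen after several had been counted, and matches of different motifs can share bases. The median GC content was 63.8% in the 44 promoters against 58.3% in all. CCGGAAG stood in 5 of the 16 with a promoter that were lower in the TIAR RIP or input (31.3%) and in 10 of the other 28 (35.7%).

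ZFHX3, a regulator of neuronal differentiation and circadian timing, fell with very little spread among its arrays. It read 9.55, 9.51 and 9.48 in the stressed TIAR RIP, against 10.66, 10.75 and 10.77 in the unstressed TIAR RIP, a change of -1.21 ± 0.07 (adjusted p = 3.91e-07), 2.32-fold lower. The other large falls were in less studied genes. ZBTB37 read 7.22, 7.04 and 7.40 stressed and 8.29, 8.26 and 8.11 unstressed, a change of -1.0 ± 0.16 (adjusted p = 0.000693). ZSCAN31 read 7.70, 7.24 and 7.46 stressed and 8.53, 8.41 and 8.27 unstressed, a change of -0.94 ± 0.21 (adjusted p = 0.00663). ZBTB44 read 9.56, 9.55 and 9.67 stressed and 10.60, 10.36 and 10.41 unstressed, a change of -0.86 ± 0.12 (adjusted p = 0.000313). In none of these did a stressed array reach an unstressed one, which the choice of named genes required. The remaining 9 were ZBTB14, ZBTB20, ZBTB39, ZBTB18, ZBTB7A, ZBTB43, ZBTB10, ZBTB4 and ZBTB21, with changes between -0.78 and -0.38. Neither array that stands apart belongs to the TIAR RIPs, but they enter the shared spread, and without both all 15 genes were again lower, with 24 lower in all and 11.3% of all clusters lower.

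**Figure D2:**
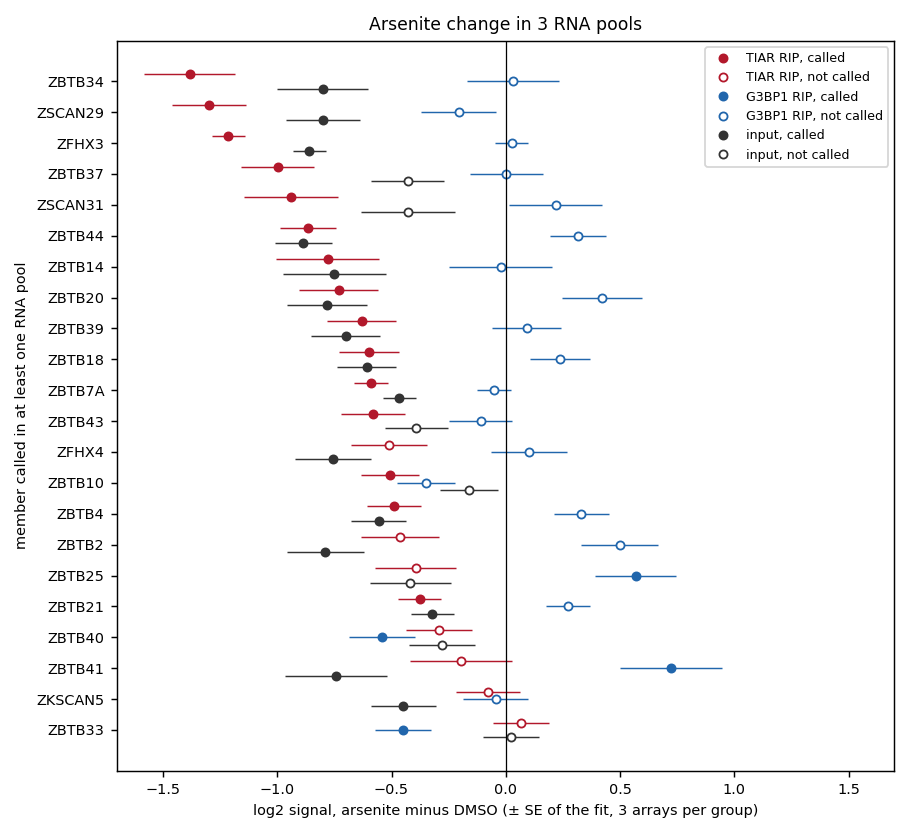
Arsenite change (stressed minus unstressed, log2 signal, ± SE of the fit, 3 arrays per group) of the 22 genes called in at least 1 of the TIAR RIP (red), the G3BP1 RIP (blue) and input (black), with filled points where the adjusted p is under 0.05. Red and black points lie mostly left of 0, while the blue ones lie on both sides, and ZBTB41 and ZBTB25 are the filled blue points on the right.

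In input, arsenite was followed by lower values of an overlapping set. In stressed input 15 of the 52 were lower and 0 higher than in unstressed input, where 11.2% of all clusters were lower and 2.52% higher. The unadjusted counts were 20 and 0, and the median change was -0.23, beside -0.03 for all clusters. Scaling moved that background, to 5.7% higher and 10.9% lower after median centring, and 6.5% higher and 9.99% lower after quantile normalization, and left 15 and 13 of the 52 lower and 0 higher. Between the 15 lower in input and the 15 lower in the TIAR RIP, 11 were shared, which is 73.3% of each, while over all clusters 77.5% of those lower in the TIAR RIP were lower in input and 39.4% of those lower in input were lower in the TIAR RIP. These 2 comparisons share no array, but they come from the same fit and share its estimate of each cluster's spread.

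ZBTB44 and ZFHX3 fell most in input. ZBTB44 read 8.53, 8.78 and 8.78 in stressed input, against 9.61, 9.51 and 9.64 in unstressed input, a change of -0.89 ± 0.12 (adjusted p = 0.000328). ZFHX3 read 8.35, 8.44 and 8.61 stressed and 9.36, 9.36 and 9.25 unstressed, a change of -0.86 ± 0.07 (adjusted p = 5.9e-06). Both were lower on every stressed array, as the choice of named genes required, with little spread among the unstressed ones. ZBTB34 read 5.43, 6.33 and 5.61 stressed and 6.53, 6.69 and 6.57 unstressed, a change of -0.80 ± 0.20 (adjusted p = 0.0143), and its call was lost when stressed replicate 1 or 3 or unstressed replicate 2 was left out. ZSCAN29 read 7.74, 7.99 and 8.18 stressed and 8.83, 8.71 and 8.77 unstressed, a change of -0.80 ± 0.16 (adjusted p = 0.00448). The stressed replicate 1 was the lowest array for ZBTB34 and ZSCAN29, as for most of the set.

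ZBTB2, a repressor linked to the p53 pathway, and ZBTB20 also fell in input. ZBTB2 read 9.12, 9.93 and 9.75 in stressed input and 10.35, 10.40 and 10.42 in unstressed input, a change of -0.79 ± 0.17 (adjusted p = 0.00621). ZBTB20 read 7.85, 8.42 and 8.46 stressed and 9.03, 9.03 and 9.02 unstressed, a change of -0.78 ± 0.17 (adjusted p = 0.00749). In both the stressed arrays 2 and 3 lay close together and replicate 1 lower. With both arrays that stand apart left out, ZBTB2 changed by -0.55 ± 0.10, ZBTB20 by -0.59 ± 0.11, ZFHX3 by -0.80 ± 0.06 and ZBTB44 by -0.80 ± 0.09, and 14 of the 15 genes remained lower, the exception being ZBTB41, beside 13.4% lower among all clusters in that fit. The other 9 of the full count were ZFHX4 (-0.76), ZBTB14, ZBTB39, ZBTB18, ZBTB4, ZBTB7A and ZKSCAN5, down to ZBTB21 (-0.32), beside ZBTB41 (-0.74).

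In the G3BP1 RIP few of the genes passed the threshold. Of the 52 genes 2 were higher and 2 lower in the stressed than in the unstressed G3BP1 RIP, where 10.4% of all clusters were higher and 4.08% lower, and the median change was 0.03, beside 0.01 for all clusters. After median centring and after quantile normalization alike, 5 of the 52 were higher and 3 lower, with a background of 11.2% higher and 7.99% lower after median centring, and 11.3% higher and 9.1% lower after quantile normalization. Leaving out both arrays that stand apart, 4 were higher and 8 lower, with 11.1% of all clusters higher and 13.7% lower. Leaving out single arrays of the 2 groups gave between 0 and 5 called genes, 0 without stressed replicate 2 or 3, and 2 without stressed replicate 1 or unstressed replicate 1.

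The 4 genes called were ZBTB41, ZBTB25, ZBTB40 and ZBTB33. ZBTB41 read 8.92, 8.76 and 8.92 in the stressed G3BP1 RIP, against 8.22, 8.42 and 7.79 in the unstressed one, a change of 0.72 ± 0.22 (adjusted p = 0.0414). ZBTB25, a zinc finger gene first known from T cells, read 8.71, 8.49 and 8.54 stressed and 8.05, 8.33 and 7.64 unstressed, a change of 0.57 ± 0.18 (adjusted p = 0.0445). The lowest unstressed array was replicate 3 for both, and in the fit without both arrays that stand apart the changes were 0.55 ± 0.16 and 0.38 ± 0.10. ZBTB40 read 9.67, 9.54 and 9.56 stressed and 10.28, 10.27 and 9.85 unstressed, a change of -0.54 ± 0.15 (adjusted p = 0.0205). ZBTB33 read 10.25, 10.11 and 10.11 stressed and 10.63, 10.76 and 10.43 unstressed, a change of -0.45 ± 0.12 (adjusted p = 0.0218). Without both arrays these were -0.68 ± 0.10 and -0.54 ± 0.08. No stressed array overlapped an unstressed one for any of the 4, as the choice of named genes required. Each call was lost when single arrays were left out.

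The difference of arsenite changes was tested directly. Beyond the change in input, the TIAR RIP showed 0 lower and 0 higher among the 52 in limma, with 0.604% of all clusters above the input change and 0.05% below it, and with 3 lower and 0 higher at an unadjusted p under 0.05. The median difference was 0.00381, beside 0.06 for all clusters. When both arrays that stand apart were left out, ZFHX3, ZSCAN29 and ZSCAN31 passed, with differences of -0.41 ± 0.09, -0.62 ± 0.15 and -0.67 ± 0.15, and with all arrays they stood at -0.36 ± 0.10, -0.50 ± 0.23 and -0.51 ± 0.29. Among all clusters 2.7% were higher and 0.627% lower without both arrays.

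In the G3BP1 RIP, 12 genes had an arsenite change above that of input and 0 below, where 14.3% of all clusters were above and 2.65% below. At an unadjusted p under 0.05 the counts were 21 above and 1 below. The median difference was 0.28, beside 0.05 for all clusters. Scaling moved the background to 12.9% higher and 6.7% lower after median centring, and 11.7% higher and 7.43% lower after quantile normalization, and gave 11 above and 1 below after centring and 11 above and 2 below after quantile normalization. ZBTB41 differed most, by 1.47 ± 0.31 (adjusted p = 0.00489), with a change of 0.72 in the G3BP1 RIP and -0.74 in input. ZBTB2 followed with 1.29 ± 0.24, ZBTB20 with 1.20 ± 0.25, ZBTB44 with 1.20 ± 0.17, ZBTB25 with 0.99 ± 0.25 and ZBTB4, a methyl-CpG binding relative of Kaiso, with 0.89 ± 0.17. Both arrays that stand apart enter this contrast, and without them the same 12 genes were above, ZBTB41 by 1.00 ± 0.22 and ZBTB2 by 0.91 ± 0.14, and ZBTB33 and ZBTB40 were below, beside 13.1% higher and 9.79% lower among all clusters.

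Set against each other, the arsenite change was lower in the TIAR RIP than in the G3BP1 RIP for 15 of the 52 and higher for 0, where 8.55% of all clusters were lower and 5.05% higher, with 19 and 2 at an unadjusted p under 0.05. The median difference was -0.23, beside -0.02 for all clusters. ZBTB34 differed by -1.41 ± 0.28 (adjusted p = 0.0036): it read 6.74, 6.56 and 6.56 in the stressed and 6.79, 6.61 and 6.37 in the unstressed G3BP1 RIP, which overlap. ZFHX3 differed by -1.24 ± 0.10 (adjusted p = 5.81e-06), with 9.71, 9.72 and 9.72 in the stressed and 9.71, 9.72 and 9.65 in the unstressed G3BP1 RIP. Its stressed and unstressed arrays thus overlapped in the G3BP1 RIP, as those of ZBTB34 did, and were apart in the TIAR RIP. ZBTB44 differed by -1.18 ± 0.17, ZSCAN31 by -1.16 ± 0.29, ZBTB20 by -1.15 ± 0.25 and ZSCAN29 by -1.09 ± 0.23. In the fit without both arrays that stand apart all 15 were again lower, among 18, and ZBTB17, ZBTB33 and ZBTB40 were higher, beside 11.3% lower and 13.4% higher among all clusters. The contrast shares its G3BP1 arrays with the one against input, and 10 genes passed in both. The share of all clusters that passed in both was not computed.

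**Figure D3:**
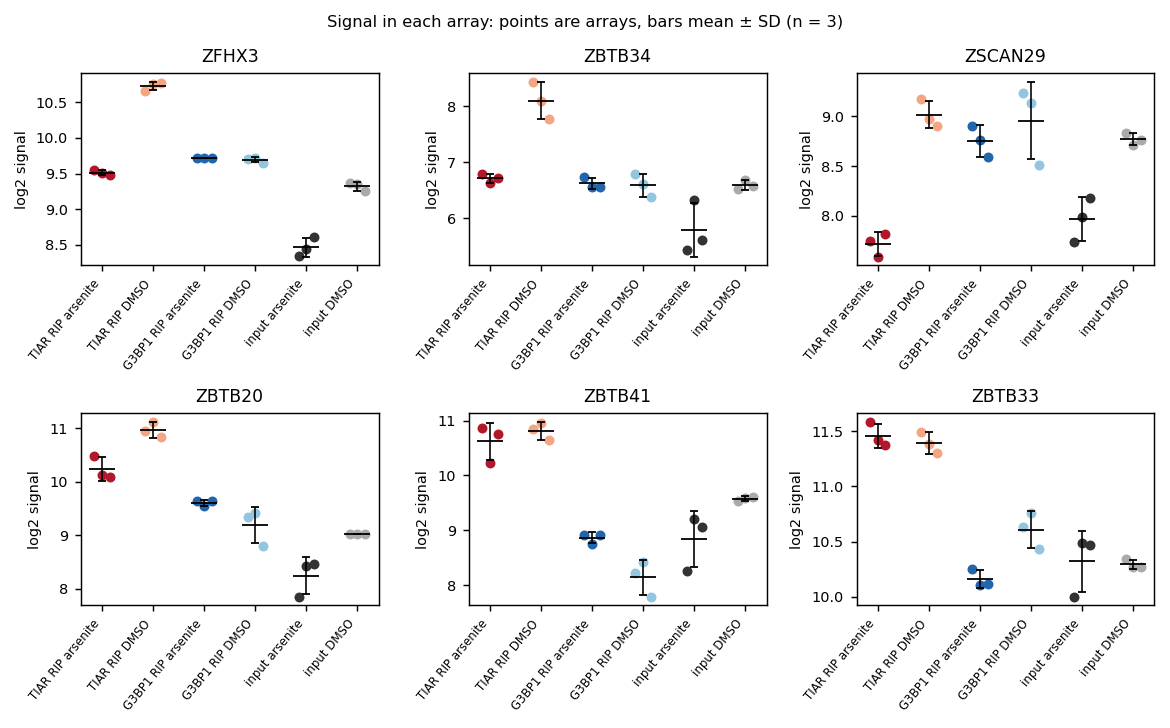
Log2 signal on every array (points) with the group mean (bar) for ZFHX3, ZBTB34, ZSCAN29, ZBTB20, ZBTB41 and ZBTB33 in the 6 groups, each RIP or input shown stressed and then unstressed. ZFHX3 falls by 1.21 with arsenite in the TIAR RIP and stands level in the G3BP1 RIP, and ZBTB41 and ZBTB33 are highest in the TIAR RIPs.

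Relative to input, the TIAR RIP held more of many of these genes in either state. In stressed cells 22 of the 52 were higher in the TIAR RIP than in input and 5 lower, where 20.3% of all clusters were higher and 23.5% lower, and the median difference was 0.20, beside -0.08 for all clusters. In unstressed cells 24 were higher and 5 lower, with 16.8% of all clusters higher and 23.8% lower, and medians of 0.34 and -0.05. Leaving out both arrays that stand apart gave 21 higher and 7 lower in stressed and 31 and 6 in unstressed cells, with 20.8% higher and 28.1% lower among all clusters in stressed and 21% higher and 28.6% lower in unstressed cells. Median centring moved the median of all clusters in unstressed cells to 0.12, and the background to 25.2% higher and 19.1% lower after median centring, and 24.2% higher and 19.7% lower after quantile normalization, and 32 genes were then higher and 3 lower, or 32 and 4. In both states 21 genes were higher, beside 15% of all clusters, and ZBTB17, ZBTB48, ZBTB7B and ZSCAN2 were lower, beside 18.3%.

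ZFHX4, which has been tied to glioma stem-like cells, led in stressed cells. It read 11.26, 10.90 and 10.93 in the stressed TIAR RIP, against 8.37, 9.07 and 9.12 in stressed input, a difference of 2.18 ± 0.17 (adjusted p = 9.67e-08), 4.52-fold higher, and 1.93 ± 0.17 in unstressed cells. ZBTB20 read 10.49, 10.13 and 10.09 in the stressed TIAR RIP and 7.85, 8.42 and 8.46 in stressed input, a difference of 1.99 ± 0.17 (adjusted p = 3.36e-07), and 1.94 ± 0.17 in unstressed cells. Each RIP array stood above each input array by more than 1 log2 unit. ZBTB6 read 10.01, 10.23 and 10.21 in the stressed TIAR RIP and 8.02, 8.20 and 8.49 in stressed input, a difference of 1.91 ± 0.15, ZKSCAN8 differed by 1.85 ± 0.18, ZBTB41 by 1.78 ± 0.22 and ZBTB2 by 1.51 ± 0.17. In unstressed cells the list also held ZBTB34, at 1.50 ± 0.20, and ZBTB25, at 1.47 ± 0.18.

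A few genes went the other way. ZBTB17, known as MIZ1, the partner through which MYC represses genes, read 8.16, 8.14 and 8.06 in the stressed TIAR RIP and 8.55, 8.59 and 8.54 in stressed input, a difference of -0.44 ± 0.09 (adjusted p = 0.000944). ZBTB48, or TZAP, which trims long telomeres, read 7.03, 7.17 and 6.90 in the stressed TIAR RIP and 7.42, 7.69 and 7.83 in stressed input, a difference of -0.61 ± 0.20 (adjusted p = 0.0213), a call that was lost on leaving out any 1 of 4 single arrays. ZBTB7B, or ThPOK, the switch to the helper T cell fate, differed by -0.34 ± 0.09 and ZSCAN2 by -0.26 ± 0.07. In unstressed cells ZBTB17 stood at -0.70 ± 0.09, ZBTB48 at -0.69 ± 0.20, ZSCAN26 at -0.89 ± 0.23, ZBTB7B at -0.38 ± 0.09 and ZSCAN2 at -0.33 ± 0.07, and ZBTB7B lost its call under both scalings and ZSCAN2 after median centring.

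The G3BP1 RIP also stood above input for many of the genes. In stressed cells 28 were higher and 1 lower, where 29.3% of all clusters were higher and 15.2% lower, and the median difference was 0.49, beside 0.03 for all clusters. Median centring moved the median of all clusters to -0.14 and the background to 24.7% higher and 25.9% lower after median centring, and 26.5% higher and 20.5% lower after quantile normalization, and left 26 genes higher and 3 lower, or 24 and 2. In unstressed cells 17 were higher and 6 lower, with 20.7% and 19.2% of all clusters, and medians of 0.15 and 0.000816. Leaving out both arrays that stand apart gave 29 higher and 2 lower in stressed and 25 and 6 in unstressed cells, with 30.3% higher and 19% lower among all clusters in stressed and 28% higher and 21.5% lower in unstressed cells. In both states 15 genes were higher and 0 lower, beside 16.8% and 9.11% of all clusters.

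ZFHX4 again stood highest in stressed cells, with 10.82, 10.73 and 10.84 in the stressed G3BP1 RIP, against 8.37, 9.07 and 9.12 in stressed input, a difference of 1.95 ± 0.17 (adjusted p = 2.5e-07), and 1.09 ± 0.17 in unstressed cells. ZBTB40, which lies at a locus associated with bone mineral density, read 9.67, 9.54 and 9.56 in the stressed G3BP1 RIP and 7.82, 8.29 and 8.35 in stressed input, a difference of 1.44 ± 0.15 (adjusted p = 1.34e-06). In unstressed cells it led, with 10.28, 10.27 and 9.85 in the G3BP1 RIP and 8.47, 8.45 and 8.38 in input, a difference of 1.70 ± 0.15 (adjusted p = 2.78e-07). In neither state did its arrays overlap, which the choice of named genes required. Next in stressed cells were ZBTB20 at 1.36 ± 0.17, ZFHX3 at 1.25 ± 0.07, ZBTB5 at 1.07 ± 0.27 and ZBTB39 at 1.04 ± 0.15. In unstressed cells they were, where arrays did not overlap, ZBTB10 at 0.81 ± 0.13, ZKSCAN4 at 0.73 ± 0.14, ZKSCAN1 at 0.73 ± 0.17 and ZSCAN25 at 0.67 ± 0.10. ZBTB5 was also called there, between ZBTB10 and ZKSCAN4 in size, but its G3BP1 RIP and input arrays overlapped. ZKSCAN1 is known as the host of a circular RNA, and it differed by 0.96 ± 0.17 in stressed cells.

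Lower than input in the unstressed G3BP1 RIP were ZBTB41, ZBTB26, ZBTB44, ZBTB25, ZBTB2 and ZBTB4. ZBTB41 read 8.22, 8.42 and 7.79 in the unstressed G3BP1 RIP, against 9.53, 9.59 and 9.61 in unstressed input, a difference of -1.43 ± 0.22 (adjusted p = 9.01e-05). The others stood at -1.10 ± 0.23 for ZBTB26, -0.89 ± 0.12 for ZBTB44, -0.74 ± 0.18 for ZBTB25, -0.66 ± 0.17 for ZBTB2 and -0.47 ± 0.12 for ZBTB4. The same 6 were lower without both arrays that stand apart, ZBTB41 at -1.26 ± 0.16. In stressed cells ZBTB12 alone was lower, at -0.49 ± 0.15 (adjusted p = 0.0161), a call lost without stressed input replicate 1 and kept without both arrays that stand apart, at -0.39 ± 0.13 (adjusted p = 0.0214).

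**Figure D4:**
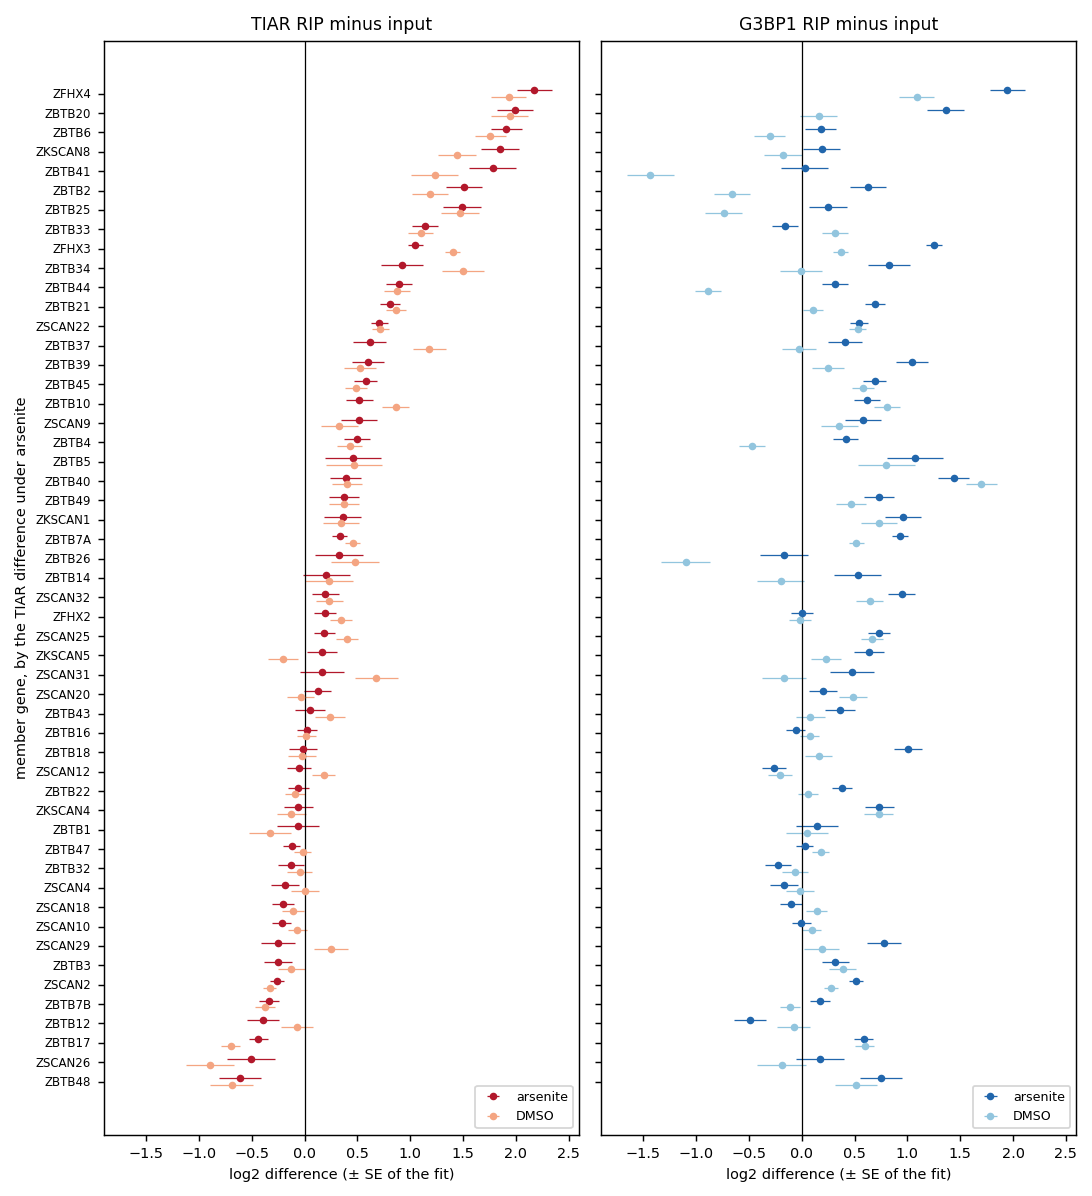
RIP minus input (log2 difference, ± SE of the fit, 3 arrays per group) for all 52 genes in stressed and unstressed cells, with the TIAR RIP in one panel and the G3BP1 RIP in the other. All points are filled, whether called or not, and their colour gives the state. ZFHX4 and ZBTB20 lie far right in the TIAR panel in both states, and in the G3BP1 panel ZBTB40 lies right in both states while ZBTB41 lies left in unstressed cells, at -1.43.

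Between the RIPs genes were called in both directions, as were all clusters. In stressed cells 8 were higher and 18 lower in the TIAR RIP than in the G3BP1 RIP, where 15.6% of all clusters were higher and 28.7% lower, and the balance turned with the scaling, to 16 higher and 13 lower after median centring and 14 and 10 after quantile normalization. The background then was 27.6% higher and 23% lower after median centring, and 22% higher and 24.5% lower after quantile normalization. In unstressed cells 18 were higher and 12 lower, with 19.3% and 27.5% of all clusters, and 22 and 8 after median centring and 24 and 6 after quantile normalization. That background was 27% higher and 22.7% lower after median centring, and 23.6% higher and 24.9% lower after quantile normalization. Median centring moved the median of all clusters to 0.17 in stressed and 0.14 in unstressed cells, as reported -0.05 and -0.05, and the medians of the 52 genes as reported were -0.13 and 0.01. With both arrays that stand apart left out 10 were higher and 24 lower in stressed and 18 and 16 in unstressed cells, with 19.7% higher and 32.9% lower among all clusters in stressed and 21% higher and 32.4% lower in unstressed cells. In both states 8 genes were higher and 11 lower in the TIAR RIP, beside 12.3% and 22.8% of all clusters. These counts, and the 8 higher in stressed cells, lay near the shares of all clusters and are descriptive only.

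The 8 genes higher in the TIAR RIP in both states were ZBTB2, ZBTB6, ZBTB20, ZBTB25, ZBTB33, ZBTB41, ZBTB44 and ZKSCAN8. ZBTB41 read 10.87, 10.23 and 10.76 in the stressed TIAR RIP, against 8.92, 8.76 and 8.92 in the stressed G3BP1 RIP, a difference of 1.75 ± 0.22 (adjusted p = 8.78e-06), and 10.84, 10.96 and 10.64 against 8.22, 8.42 and 7.79 in the unstressed RIPs, 2.67 ± 0.22 (adjusted p = 7.22e-08). ZBTB6 differed by 1.73 ± 0.15 stressed and 2.06 ± 0.15 unstressed, and ZKSCAN8 by 1.66 ± 0.18 and 1.62 ± 0.18. ZBTB33 read 11.58, 11.42 and 11.37 in the stressed TIAR RIP and 10.25, 10.11 and 10.11 in the stressed G3BP1 RIP, a difference of 1.30 ± 0.12 (adjusted p = 3.65e-07), and its input arrays read 10.00, 10.49 and 10.47 stressed. ZBTB25 differed by 1.25 ± 0.18 and 2.21 ± 0.18, and ZBTB2 by 0.89 ± 0.17 and 1.85 ± 0.17. In unstressed cells ZBTB20 stood at 1.78 ± 0.17 and ZBTB44 at 1.76 ± 0.12.

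Lower in the TIAR RIP in both states were 11 genes, among them ZBTB17, ZBTB40, ZBTB48 and ZKSCAN4. ZBTB48 read 7.03, 7.17 and 6.90 in the stressed TIAR RIP and 8.50, 8.38 and 8.30 in the stressed G3BP1 RIP, a difference of -1.36 ± 0.20 (adjusted p = 3.79e-05), and -1.20 ± 0.20 in unstressed cells. ZBTB17 read 8.16, 8.14 and 8.06 and 9.18, 9.25 and 9.01 on the same arrays, a difference of -1.02 ± 0.09 (adjusted p = 1.8e-07), and -1.29 ± 0.09 in unstressed cells. For both, as the choice of named genes required, no array of one RIP reached those of the other. ZBTB40 differed by -1.05 ± 0.15 and -1.30 ± 0.15, ZKSCAN4 by -0.79 ± 0.14 and -0.86 ± 0.14. A separate cluster with the symbols of both ZKSCAN3 and ZKSCAN4, left out by the name rule, did not share this direction. It was higher in the unstressed TIAR RIP, at 0.75 ± 0.18 (limma adjusted p = 0.0027). In stressed cells it stood at 0.21 ± 0.18 and was not called. In stressed cells ZSCAN29 stood at -1.03 ± 0.16 and ZBTB18, a transcriptional repressor that acts in cortical development, at -1.02 ± 0.13. In unstressed cells ZSCAN26 stood at -0.70 ± 0.23, lost after quantile normalization and without some single arrays, and ZSCAN2 at -0.61 ± 0.07.

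The families contributed in different numbers to the arsenite comparisons. In the TIAR RIP 12 of 32 ZBTB, 2 of 13 ZSCAN, 0 of 4 ZKSCAN (1 lower at an unadjusted p under 0.05 in limma) and 1 of 3 ZFHX genes were lower, with medians of -0.34, -0.15, -0.05 and -0.51, where 5.71% of all clusters were lower. In input 11 ZBTB, 1 ZSCAN, 1 ZKSCAN and 2 ZFHX genes were lower, with medians of -0.34, -0.09, -0.27 and -0.76, against 11.2% of all clusters. The difference between families was not tested. In the stressed TIAR RIP against input, 17 of 32 ZBTB and 2 of 13 ZSCAN genes were higher, beside 20.3% of all clusters, and in the stressed G3BP1 RIP 17 ZBTB and 6 ZSCAN genes, beside 29.3%.

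By role, the neural and developmental genes ZBTB14, ZBTB18, ZBTB20, ZBTB45, ZFHX2, ZFHX3 and ZFHX4 included 4 of 7 that were lower with arsenite in the TIAR RIP, 5 in input and 0 in the G3BP1 RIP (limma, 1 higher and 0 lower at an unadjusted p under 0.05), with medians of -0.60, -0.75 and 0.05. Over all clusters the shares were 5.71% lower in the TIAR RIP, 11.2% lower in input, and 10.4% higher and 4.08% lower in the G3BP1 RIP. ZBTB18 read 8.07, 8.42 and 8.53 in stressed input and 8.93, 8.99 and 8.92 in unstressed input (-0.61 ± 0.13, adjusted p = 0.0059). ZFHX2 met the threshold in none of the 3 arsenite comparisons, at -0.12 ± 0.10, 0.05 ± 0.10 and 0.04 ± 0.10 in the TIAR RIP, G3BP1 RIP and input. Among 8 genes known from lymphocytes and blood, 2 were lower in the TIAR RIP and 2 in input, ZBTB7A and ZBTB20, and ZBTB25 was higher in the G3BP1 RIP, which are shares of 25%, 25% and 12.5%. ZBTB7A read 9.58, 9.79 and 9.56 in the stressed and 10.24, 10.19 and 10.27 in the unstressed TIAR RIP, a change of -0.59 ± 0.07 (adjusted p = 0.00011), and -0.47 ± 0.07 in input.

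Of the methyl-CpG binders, ZBTB4 fell in the TIAR RIP by 0.49 (adjusted p = 0.0134) and in input by 0.56 (adjusted p = 0.0061), while ZBTB33 stood at 0.06 ± 0.12 and 0.02 ± 0.12, and ZBTB38 was not analysed here. Among 5 genes of telomere and genome maintenance, ZBTB10 was lower with arsenite in the TIAR RIP, at -0.51 ± 0.13, and ZBTB40 in the G3BP1 RIP. Among 4 genes of pluripotency and the early embryo, ZFHX3 was lower in the TIAR RIP and input and ZSCAN4, ZSCAN10 and ZBTB17 were not called. Of the KRAB and SCAN genes, ZKSCAN5 was lower in input, at -0.45 ± 0.14, and ZKSCAN1, ZKSCAN4 and ZKSCAN8 were not called with arsenite. Over all clusters 5.71% were lower in the TIAR RIP, 11.2% in input and 4.08% in the G3BP1 RIP. Lists of 4 or 5 genes are too small to set against these shares. ZKSCAN3 shares a cluster with ZKSCAN4 in the platform table and was not counted. That cluster is separate from the single-symbol cluster that stands for ZKSCAN4 here.

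Related genes outside the name rule were counted too. Of 9 other zinc finger homeobox genes measured, 8 were lower with arsenite in the TIAR RIP, 8 in input and 0 in the G3BP1 RIP (limma, 1 higher and 1 lower at an unadjusted p under 0.05), with medians of -0.53, -0.53 and -0.06. ZHX3 changed by -0.57 ± 0.11 in the TIAR RIP and -0.43 ± 0.11 in input, and ZEB2, a driver of mesenchymal change, by -0.53 ± 0.11 and -0.45 ± 0.11. All 8 BTB zinc finger genes outside the rule, such as BCL6, were measured, with 0 called by limma in the TIAR RIP (2 lower at an unadjusted p under 0.05), 0 in the G3BP1 RIP (1 higher and 2 lower) and 2 lower in input. Of 22 other SCAN genes, 2 were lower in the TIAR RIP, 3 higher in the G3BP1 RIP and 4 lower in input, shares of 9.09%, 13.6% and 18.2%. Of 16 corepressors and partners, 2 were higher and 4 lower in the TIAR RIP, 1 higher and 3 lower in the G3BP1 RIP and 8 lower in input. BCOR, a BTB corepressor, was lower in all 3, at -0.40 ± 0.10, -0.55 ± 0.10 and -0.68 ± 0.10. TBL1X, of the NCOR complex, changed by -0.53 ± 0.09 in the TIAR RIP and -0.72 ± 0.09 in input. Among 305 genes with ZNF symbols, 29 were lower and 0 higher in the TIAR RIP (9.51% lower, and 65 lower and 2 higher at an unadjusted p under 0.05), 57 lower and 1 higher in input (18.7% lower), and 18 higher (5.9%) and 7 lower (2.3%) in the G3BP1 RIP. The counts in the TIAR RIP, input and G3BP1 RIP stand beside 5.71% lower, 11.2% lower, and 10.4% higher and 4.08% lower among all clusters.

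Neighbours on a chromosome did not always share a pattern. ZBTB6 and ZBTB26 lie side by side, and in the stressed TIAR RIP against input they stood at 1.91 ± 0.15 and 0.32 ± 0.23, the second not called. ZBTB43 and ZBTB34, also adjacent, were both lower with arsenite in the TIAR RIP, at -0.58 ± 0.14 and -1.38 ± 0.20. ZKSCAN8, ZSCAN9 and ZKSCAN4 follow one another in a cluster of SCAN genes. Their differences between the stressed TIAR and G3BP1 RIPs were 1.66 ± 0.18, -0.07 ± 0.17 and -0.79 ± 0.14, so that the first was higher, the third lower and the middle one not called. The separate cluster shared by ZKSCAN3 and ZKSCAN4 stood at 0.21 ± 0.18 in that comparison and was not called. Gene order is that of RefSeq on GRCh38.p14.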

How the data were processed

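Each of the 18 samples is 1 Affymetrix exon array, and the labels place 3 biological replicates in each of 6 groups. The deposited table holds log2 signal values, produced by the authors with RMA in Affymetrix Expression Console, per the submitters' processing notes. Its version, the probe-set level and the genome build are not stated in the sources used here. As a method, RMA subtracts background, equalises the arrays' distributions and summarises probes, so a value is relative within its array. The deposited arrays were not fully equal, with medians from 7.73 to 8.07 and upper quartiles from 9.17 to 9.94. GEO's platform table gives 1 symbol to 14432 of the 22011 transcript clusters, several to 2408 and none to 5171. It marks no control probes, so every cluster was tested.

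Group means were estimated with lmFit and eBayes of limma 3.58.1 (R 4.3.3) in 1 model of the 18 arrays, with 12 residual and 2.61 prior degrees of freedom and without filter or trend. For each of 12 comparisons the two-sided p-values received a Benjamini-Hochberg adjustment across the 22011 clusters, and a value under 0.05 was called. Errors are standard errors of the fit, whose precision the number of arrays limits. The fit was tested on simulated data. Named genes are up to 6 called per direction and comparison whose arrays do not overlap (for differences of changes, up to 6 called), a fixed list that includes ZFHX3, ZBTB7A, ZBTB16 and ZBTB33, and the 5 brightest and 5 dimmest; families and lists are given by counts. Genes and lists were chosen with earlier results of these data known.

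Replicate numbers were not used as pairs in the main fit. Deviations of same-numbered arrays from their group means correlated between -0.41 and 0.42, and in 0 of 15 pairs of groups were all 3 correlations over 0.1. With 3 arrays per group and arrays that stand apart, these values cannot decide whether same-numbered samples were paired. Alternatives were a replicate block, an intensity trend with a robust prior, omission of the dimmest 25% of clusters, median centring, quantile normalization, omission of each array, omission of both arrays that stand apart, and the mean of a gene's clusters. Promoters and gene order come from RefSeq on GRCh38.p14.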

Additional observations from a re-analysis of the deposited data

Results flagged for a closer look

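The arsenite change of 15 of the 52 genes differed between the TIAR RIP and the G3BP1 RIP by the direct test of the difference in limma, and all 15 were lower in the TIAR RIP. The differences were -1.41 ± 0.28 for ZBTB34, -1.24 ± 0.10 for ZFHX3 and -1.18 ± 0.17 for ZBTB44 (SE of the fit). ZSCAN31 followed with -1.16 ± 0.29, ZBTB20 with -1.15 ± 0.25 and ZSCAN29 with -1.09 ± 0.23. For ZBTB34 the changes behind this were -1.38 in the TIAR RIP and 0.03 in the G3BP1 RIP, and for ZFHX3 -1.21 and 0.03. For ZBTB44 and ZBTB20 the signs differed, at -0.86 and 0.32, and at -0.73 and 0.42, but neither G3BP1 change was called. The unstressed G3BP1 replicate 3, which stands apart, was the lowest of its group for both, at 8.38 and 8.80.

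The arsenite change of 12 genes in the G3BP1 RIP differed from that in input by the same test, and all 12 were higher in the RIP. The differences were 1.47 ± 0.31 for ZBTB41, 1.29 ± 0.24 for ZBTB2, 1.20 ± 0.25 for ZBTB20, 1.20 ± 0.17 for ZBTB44, 0.99 ± 0.25 for ZBTB25 and 0.89 ± 0.17 for ZBTB4. The arrays that stand apart, stressed input replicate 1 and unstressed G3BP1 replicate 3, both enter this difference, and without them the values were 1.00 ± 0.22, 0.91 ± 0.14, 0.81 ± 0.15, 0.96 ± 0.13, 0.58 ± 0.14 and 0.62 ± 0.10 in the same order. The part of these arrays in the result beyond those values was not tested. The 2 tests share the G3BP1 arrays.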

How the results depend on the processing

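No named value changed sign under any alternative run. Of 92 named values per setting, the trend, the filter and leaving out both arrays that stand apart changed no call. Averaging a gene's clusters could change none, since each of the 52 genes had 1 cluster under the rule. The replicate block, median centring and quantile normalization each lost 2, and leaving out single arrays lost 29 of 624. Leaving out both arrays that stand apart gave 24 called genes with arsenite in the TIAR RIP in place of 15, 12 in the G3BP1 RIP in place of 4, and 3 in place of 0 beyond input in the TIAR RIP. Median centring and quantile normalization gave 8 and 8 in the G3BP1 RIP, and quantile normalization 1 in the TIAR RIP beyond input. Leaving out single arrays gave 0 to 5 in the G3BP1 RIP. With the replicate block the counts were 14, 3 and 12 with arsenite in the TIAR RIP, G3BP1 RIP and input, and 0, 12 and 14 for the 3 differences of changes; ZBTB41 and ZBTB25 lost their calls in the G3BP1 RIP, and no other named call changed. The causes were not tested. The table gives no background level, so for the dimmest genes, such as ZSCAN4, signal and background cannot be told apart.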

Other observations

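The platform table gives 10 further clusters several symbols of which at least 1 has the ZBTB, ZSCAN or ZKSCAN form, and these were left out of the 52 genes because their probes are not assigned to 1 gene. The cluster shared by ZSCAN5A, ZSCAN5B and ZSCAN5C was higher in the G3BP1 RIP than in input, by 1.10 ± 0.18 in stressed and 0.73 ± 0.18 in unstressed cells (SE of the fit, n = 3 per group; limma adjusted p = 0.000118 and adjusted p = 0.0036). Between the RIPs it stood at -1.44 ± 0.18 stressed and -1.25 ± 0.18 unstressed, lower in the TIAR RIP. In the other direction, the cluster of ZKSCAN3 and ZKSCAN4 was higher in the TIAR RIP than in input, by 0.80 ± 0.18 and 1.03 ± 0.18, and that of ZBTB8A and ZBTB8B by 0.92 ± 0.11 and 0.89 ± 0.11. Between the RIPs the cluster of ZKSCAN3 and ZKSCAN4 stood at 0.21 ± 0.18 stressed, not called, and 0.75 ± 0.18 unstressed, higher in the TIAR RIP. The single-symbol ZKSCAN4 cluster was lower there in both states, and the reason for this difference was not tested. In a cluster shared by SLC2A4RG and ZBTB46, the stressed input value was lower than the unstressed one, at -0.40 ± 0.08 (adjusted p = 0.00401), the 1 call with arsenite among the 10 clusters in the TIAR RIP, the G3BP1 RIP and input. Clusters shared with an antisense gene, of ZBTB11 and of ZSCAN16, were lower in the unstressed TIAR RIP than in the unstressed G3BP1 RIP, at -1.13 ± 0.27 and -1.36 ± 0.29, and which strand the signal comes from was not tested.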
